A study of Mus musculus with 24 samples.

Results

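A set of 10 genes of the hypoxia response and of glycolysis were followed by RNA-seq across the BBN-induced urothelial carcinoma Roswell Park (BURP) tumor lines, a panel of transplantable mouse bladder tumors. The genes, Hif1a, Slc2a1, Hk2, Pgk1, Ldha, Pdk1, Car9, Vegfa, Ndrg1 and Bnip3, were chosen by name, and their symbols were matched to the Ensembl identifiers of a table of 53465 genes. All 10 were found, and all 10 passed the filter on low counts in every comparison. The table held 24 tumors, 3 from each of 8 lines. Each line began as 1 bladder tumor of a C57BL/6NTac mouse that drank water with 0.1% BBN, a nitrosamine carcinogen, from 8 weeks of age for up to 36 weeks, and was then carried as pieces of tissue under the skin of C57BL/6NTac mice of the same sex with an intact immune system. All tumors therefore shared strain, carcinogen and graft site. Per the labels and the study's methods, 6 lines had the basal/squamous (Ba/Sq) subtype, of which BURP-12BaSq, BURP-17BaSq and BURP-18BaSq had male donors. The donors of BURP-21BaSq, of BURP-24BaSq and of BURP-25BaSq were female. BURP-16SR was a stroma-rich sarcomatoid line and BURP-19NE a neuroendocrine-like line, both from males. In the paper, 1 of 3 BURP-16SR replicates was instead highly correlated with the neuroendocrine-like class, and the paper's text does not say which. The paper also reported high synaptophysin, a neuroendocrine marker, in BURP-16SR by staining. The labels name no treatment for the sequenced tumors, and what was compared was the level of these genes between lines as they grew. Sister tumors go back to a single donor tumor. In the F tests among lines and in tests of a single line against another, p-values therefore measure the spread between such grafts. They do not measure the spread between animals that formed tumors of their own. Where several Ba/Sq lines were pooled as a group, the spread between those lines enters the p-values as well. The main fits of those comparisons still count sister tumors as if they were independent.

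Cells that run short of oxygen keep the transcription factor hypoxia-inducible factor 1-alpha, encoded by Hif1a, from being degraded, and the factor then binds short ACGTG or GCGTG motifs near its target genes. The targets raise glucose uptake and glycolysis, turn pyruvate away from mitochondria, help export acid and call in blood vessels. Because oxygen acts mostly on the stability of the Hif1a protein, the Hif1a transcript is not itself a measure of the factor's activity. Slc2a1 encodes the glucose transporter GLUT1, Hk2 a hexokinase that traps glucose in the cell, Pgk1 an enzyme of lower glycolysis that makes ATP, and Ldha the lactate dehydrogenase subunit that favors lactate. Pdk1 encodes a kinase that shuts the pyruvate dehydrogenase complex, Car9 the membrane carbonic anhydrase IX, Vegfa the main growth factor of blood vessels, Ndrg1 a stress-induced protein of differentiating epithelium, and Bnip3 a mitochondrial protein that takes part in mitophagy. In bladder cancer and in squamous epithelium, Car9 and Slc2a1 are commonly used as tissue markers of hypoxia.

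The sequences upstream of 4 members are shown because they hold the motif that defines the pathway, and because these genes span the pathway from glucose uptake to lactate and mitophagy. Each run is the 250 bases before a RefSeq transcription start in GRCm38.p6, read 5′ to 3′ on the gene's strand, and capitals mark ACGTG or GCGTG on either strand, so that CACGT and CACGC are the same motifs read on the opposite strand and CACGTG holds ACGTG on both strands.
Slc2a1 (chr4:119108495-119108744, + strand): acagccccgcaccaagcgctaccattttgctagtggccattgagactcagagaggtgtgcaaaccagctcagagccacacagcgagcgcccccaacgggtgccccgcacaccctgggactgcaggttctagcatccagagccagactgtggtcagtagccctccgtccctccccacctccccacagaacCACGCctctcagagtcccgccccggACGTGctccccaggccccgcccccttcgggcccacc
Pgk1 (chrX:106186850-106187099, + strand): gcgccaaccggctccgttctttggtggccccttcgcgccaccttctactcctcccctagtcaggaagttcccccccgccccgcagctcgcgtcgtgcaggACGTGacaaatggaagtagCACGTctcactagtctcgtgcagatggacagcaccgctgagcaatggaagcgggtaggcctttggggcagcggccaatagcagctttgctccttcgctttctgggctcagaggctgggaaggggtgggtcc
Ldha (chr7:46845554-46845803, + strand): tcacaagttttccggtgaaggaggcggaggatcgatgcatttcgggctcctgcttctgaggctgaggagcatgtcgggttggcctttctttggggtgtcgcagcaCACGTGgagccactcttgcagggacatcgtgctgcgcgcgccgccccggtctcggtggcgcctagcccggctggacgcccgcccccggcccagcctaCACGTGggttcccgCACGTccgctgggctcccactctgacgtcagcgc
Bnip3 (chr7:138909507-138909756, - strand): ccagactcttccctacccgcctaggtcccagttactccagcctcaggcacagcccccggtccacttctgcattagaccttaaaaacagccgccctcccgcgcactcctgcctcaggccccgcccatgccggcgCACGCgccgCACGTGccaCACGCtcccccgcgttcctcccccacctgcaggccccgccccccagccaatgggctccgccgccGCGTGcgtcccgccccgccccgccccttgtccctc
Of the members, 9 had an entry in the RefSeq promoter table, and Ndrg1 was not among them. Counted on both strands, the first listed window held 5 matches for Ldha, 5 for Bnip3, 3 for Hif1a, 2 each for Slc2a1, Hk2 and Pgk1, 1 each for Pdk1 and Car9, and 0 for Vegfa, whose second listed window held 2. The same search found at least 1 match in 38.6% of 32851 mouse promoter windows of this length, at least 2 in 16.7% and at least 3 in 6.58%. In the Ldha window the 5 matches came from 2 copies of CACGTG, each read on both strands, and 1 further ACGTG. The Bnip3 window mixed 2 ACGTG with 3 GCGTG matches. A match describes these letters and not a bound site, and the windows leave out distal elements.

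In the GRCm38 annotation, Slc2a1 and Car9 share a chromosome, as do Ldha and Bnip3, and the other members lie on chromosomes of their own. Hif1a (ENSMUSG00000021109.13) spans chr12:73901375-73947530 on the + strand, Slc2a1 (ENSMUSG00000028645.11) chr4:119108711-119137983 on the + strand and Hk2 (ENSMUSG00000000628.10) chr6:82725025-82774454 on the - strand. Pgk1 (ENSMUSG00000062070.12) spans chrX:106187100-106203699 on the + strand, Ldha (ENSMUSG00000063229.15) chr7:46841475-46855627 on the + strand, Pdk1 (ENSMUSG00000006494.11) chr2:71873224-71903858 on the + strand and Car9 (ENSMUSG00000028463.14) chr4:43506966-43513729 on the + strand. Vegfa (ENSMUSG00000023951.17) spans chr17:46016993-46032369, Ndrg1 (ENSMUSG00000005125.12) chr15:66929318-66969640 and Bnip3 (ENSMUSG00000078566.8) chr7:138890836-138909519, all on the - strand. Counts were summed over all exons of a gene, untranslated regions included.

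Totals ran from 9295708 to 25370320 estimated counts per tumor (median 17693147). Levels below are counts per 1000000 (CPM) scaled by the trimmed mean of M-values (TMM), and a limit of 3 counts corresponds to 0.106 to 1.34 CPM depending on the tumor. The summed level of 7 epithelial markers (Krt5, Krt14, Krt6a, Trp63, Dsg3, Epcam and Cdh1) was 8211 to 21880 CPM in the Ba/Sq tumors. It was 4.41 to 7.21 CPM in BURP-16SR and 1.68 to 2.81 CPM in BURP-19NE. The paper assigned the subtypes from this same RNA, so these values are no independent support for the labels. By staining, the paper reported high TP63 protein in BURP-19NE, although Trp63 is part of this low sum. A pair of libraries of BURP-25BaSq stood apart. In tumor 2 (labelled C102-M30) 61.9% of counts fell on 1 ribosomal RNA gene, against 5.62 to 18.1% for the leading gene of the other tumors. Tumor 3 (labelled C102-M1) lay nearer to the BURP-21BaSq tumors than to its own line, with a root-mean-square log2 CPM difference of 0.669 to 0.782 over 21383 genes from the former and of 1.35 to 1.56 from the latter. Some results for BURP-25BaSq are therefore also given without 1 or both of them. Most of its line means, the shares of variance and the correlations between members use all tumors.

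Per kilobase of exon, the scale on which different genes can be compared, Pgk1 (mean over 24 tumors 256 CPM per kilobase) and Ldha (231) stood far above the other members. Slc2a1 (63.9), Ndrg1 (58.4), Vegfa (57.2), Hif1a (53.5), Bnip3 (40.3) and Hk2 (29.9) came next, followed by Pdk1 (14.1) and, lowest, Car9 (3.49). The members were also the leading forms among their relatives in most cases. Hk2 stood above Hk1 (12.7 CPM per kilobase) and Hk3 (1.39), Ldha above Ldhb (4.23), and Hif1a above Epas1 (10.3), the gene of a related oxygen-regulated factor, and Hif3a (0.0975). Slc2a1 stood above Slc2a3 (0.720), and Pdk1 above Pdk3 (7.85) and Pdk2 (1.63). Car9 was the exception, with a mean below those of the carbonic anhydrases Car13 (24.1) and Car12 (17.5). Pgk2, the testis form of Pgk1, had 0 counts in all 24 tumors. Levels between genes carry the uncertainty of how shared reads were assigned. The estimates of Hif1a, Ldha and Bnip3 were not whole numbers in 24 of 24 tumors and those of Pgk1 in 23, which is how reads shared with near-identical sequence appear, whereas those of Hk2, Pdk1 and Vegfa were whole in all.

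**Figure D1:**
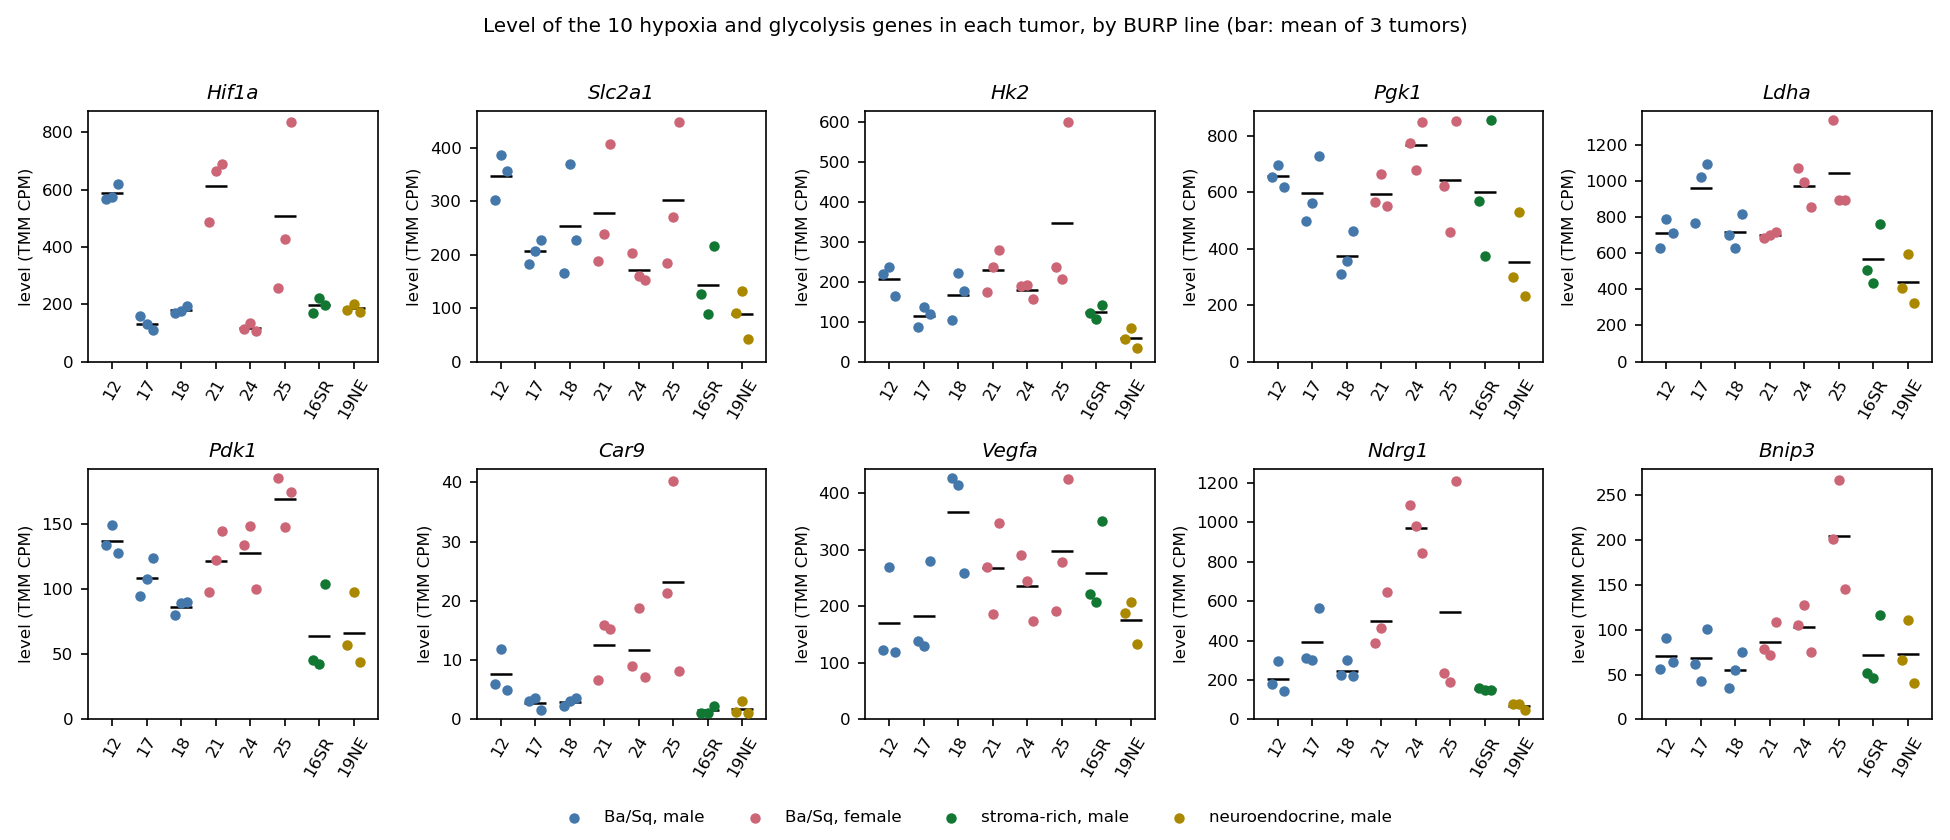
Level of each of the 10 genes in every tumor (y axis, TMM CPM, from 0), by BURP line (x axis, line number); points are tumors, colored by subtype and sex, and bars are means of 3 tumors. Hif1a has a high group of BURP-12BaSq, BURP-21BaSq and 2 tumors of BURP-25BaSq, Ndrg1 is highest in BURP-24BaSq apart from 1 BURP-25BaSq tumor at 1212 CPM, and BURP-19NE has the lowest mean for Slc2a1, Hk2, Pgk1, Ldha and Ndrg1.

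Hif1a was the member whose level depended most on the line. Its level was 567, 575 and 621 CPM in the 3 tumors of BURP-12BaSq and 486, 665 and 689 CPM in those of BURP-21BaSq. It was 112, 135 and 107 CPM in BURP-24BaSq and 157, 129 and 109 CPM in BURP-17BaSq. These 4 lines form a high and a low pair without overlap, and each pair holds a male and a female line. BURP-18BaSq (169, 178 and 195 CPM), BURP-16SR (168, 223 and 197 CPM) and BURP-19NE (181, 202 and 173 CPM) lay just above the low pair. BURP-25BaSq spread from 258 and 429 CPM in tumors 1 and 2 to 837 CPM in tumor 3, the library near BURP-21BaSq. Line means ran from 118 ± 14.5 (SD, n = 3) to 613 ± 111 CPM, a ratio of 5.20, and 90.9% of the variance of log2 CPM lay between the 8 lines, against a median of 69.1% over all genes tested. In the order of line means, tumors of neighbouring lines did not overlap at 2 places, between BURP-25BaSq and BURP-16SR and between BURP-18BaSq and BURP-17BaSq.

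The genes of glucose uptake and trapping had a narrower spread between Ba/Sq lines. The transporter gene Slc2a1 measured 302, 386 and 356 CPM in BURP-12BaSq, the highest line, and 203, 161 and 153 CPM in BURP-24BaSq, the lowest Ba/Sq line. In BURP-19NE it measured 91.5, 133 and 41.7 CPM. All neighbours in its order of lines overlapped. The hexokinase gene Hk2 measured 237, 207 and 600 CPM in BURP-25BaSq, the highest line, where the mean of 348 ± 219 CPM (SD, n = 3) rests on tumor 3 and was 222 ± 20.8 (SD, n = 2) without it. Hk2 measured 56.3, 84.3 and 34.7 CPM in BURP-19NE, and the 3 tumors of BURP-17BaSq, the next line up, were 85.7, 136 and 120 CPM, so these neighbours did not overlap.

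The genes of lower glycolysis had a narrow range of line means. Even so, 75.3% of the variance of log2 CPM of Ldha lay between the 8 lines, and 61.2% of that of Pgk1, against a median of 69.1% over all genes tested. Pgk1 measured 775, 681 and 851 CPM in BURP-24BaSq, its highest line, 309, 355 and 462 CPM in BURP-18BaSq and 301, 529 and 233 CPM in BURP-19NE, its lowest. BURP-18BaSq lay below all 3 tumors of BURP-21BaSq, the next line up, and overlapped BURP-19NE. The ratio of the highest to the lowest line mean was 2.17 for Pgk1 and 2.36 for Ldha. Ldha measured 1337, 897 and 898 CPM in BURP-25BaSq, 1074, 993 and 856 CPM in BURP-24BaSq and 769, 1024 and 1094 CPM in BURP-17BaSq. In BURP-19NE it was 410, 596 and 323 CPM. Ldha was thus high in BURP-17BaSq and BURP-24BaSq, the lines with the least Hif1a transcript, and all neighbours in its order overlapped. Pdk1, which acts at the branch between lactate and mitochondrial use of pyruvate, measured 185, 147.7 and 174 CPM in BURP-25BaSq, 79.7, 89.4 and 89.9 CPM in BURP-18BaSq and 45.5, 42.5 and 104 CPM in BURP-16SR. The third BURP-16SR tumor stood far above the others of its line, so the mean of 63.9 ± 34.5 CPM (SD, n = 3) is imprecise.

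Car9 had the widest range and the lowest level. It measured 21.3, 40.3 and 8.15 CPM in BURP-25BaSq, 6.70, 15.97 and 15.3 CPM in BURP-21BaSq and 8.97, 18.9 and 7.24 CPM in BURP-24BaSq. In BURP-16SR it was 1.10, 1.16 and 2.31 CPM, which are 13, 15 and 33 counts, and in BURP-19NE it was 1.18, 3.16 and 1.13 CPM. The highest line mean was 15.3 times the lowest. The male lines BURP-17BaSq (3.07, 3.70 and 1.53 CPM) and BURP-18BaSq (2.20, 3.09 and 3.63 CPM) overlapped the values of BURP-16SR and BURP-19NE, so low Car9 was not limited to the other subtypes.

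Vegfa, the angiogenic ligand, differed least by line. It measured 428, 414 and 259 CPM in BURP-18BaSq, its highest line, and 122, 270 and 118 CPM in BURP-12BaSq, its lowest. The line with the lowest Vegfa is thus one of the pair with the highest Hif1a transcript. All neighbours overlapped and 47.6% of its variance lay between lines.

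Ndrg1 measured 1086, 979 and 847 CPM in BURP-24BaSq, 79.3, 76.5 and 47.5 CPM in BURP-19NE and 159, 149.2 and 149.8 CPM in BURP-16SR. Every BURP-24BaSq tumor exceeded every tumor of the other lines except tumor 3 of BURP-25BaSq, at 1212 CPM, whose sister tumors were at 234 and 188 CPM. The highest line mean was 14.3 times the lowest. Bnip3 measured 201, 267 and 145 CPM in BURP-25BaSq, and the other 5 Ba/Sq lines had 35.2 to 128 CPM. Its lowest line was BURP-18BaSq (35.2, 54.6 and 74.98 CPM), and BURP-19NE (66.1, 111 and 40.1 CPM) was not low.

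Across the members, BURP-25BaSq had the highest mean for 5 (Hk2, Ldha, Pdk1, Car9 and Bnip3) and BURP-19NE the lowest for 5 (Slc2a1, Hk2, Pgk1, Ldha and Ndrg1). Without tumor 3 the Hk2 mean of BURP-25BaSq was 222 CPM, below the 230 CPM of BURP-21BaSq. An F test over the 8 lines (edgeR quasi-likelihood, Benjamini-Hochberg adjusted over all genes tested) was passed by 9 of 10 members, from Hif1a (adjusted p = 5.62e-07), Car9 (4.58e-05) and Ndrg1 (8.53e-05) to Pgk1 (0.0259), and not by Vegfa (0.102). This is read against the 76.7% of all genes that passed, so a difference between lines is not particular to these genes. Vegfa passed with DESeq2 (0.0430), without tumor 2 of BURP-12BaSq (0.0269) and without tumor 3 of BURP-17BaSq (0.0360). Bnip3 (0.00605) did not pass without tumor 2 of BURP-25BaSq (0.0564) or without both doubtful tumors (0.107), and Pgk1 did not pass without 1 tumor in 5 instances, 2 of BURP-18BaSq, 2 of BURP-19NE and 1 of BURP-24BaSq (0.0514 to 0.0719).

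Within the 6 Ba/Sq lines alone, 8 of 10 members passed the F test, against 50.5% of all genes. Hif1a had the smallest adjusted p (8.94e-05), followed by Car9 (0.00349), Bnip3 (0.00364) and Pdk1 (0.00779), and 90.8% of the Hif1a variance lay between these lines against an all-gene median of 58.8%. Ndrg1 (0.0237), Pgk1 (0.0241), Hk2 (0.0268) and Ldha (0.0379) passed less firmly. Hk2 gave 0.0561 without both doubtful tumors and 0.0600 and 0.0551 without tumor 1 or 3 of BURP-17BaSq, Ldha exceeded the threshold in 13 of 25 alternative settings with a highest value of 0.0746, and leaving out 1 of 4 tumors of BURP-12BaSq or BURP-24BaSq took Ndrg1 to between 0.0528 and 0.0625. Pgk1 gave 0.105 and 0.0862 without tumor 1 or 2 of BURP-18BaSq. Slc2a1 (0.138) and Vegfa (0.147) did not pass.

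**Figure D2:**
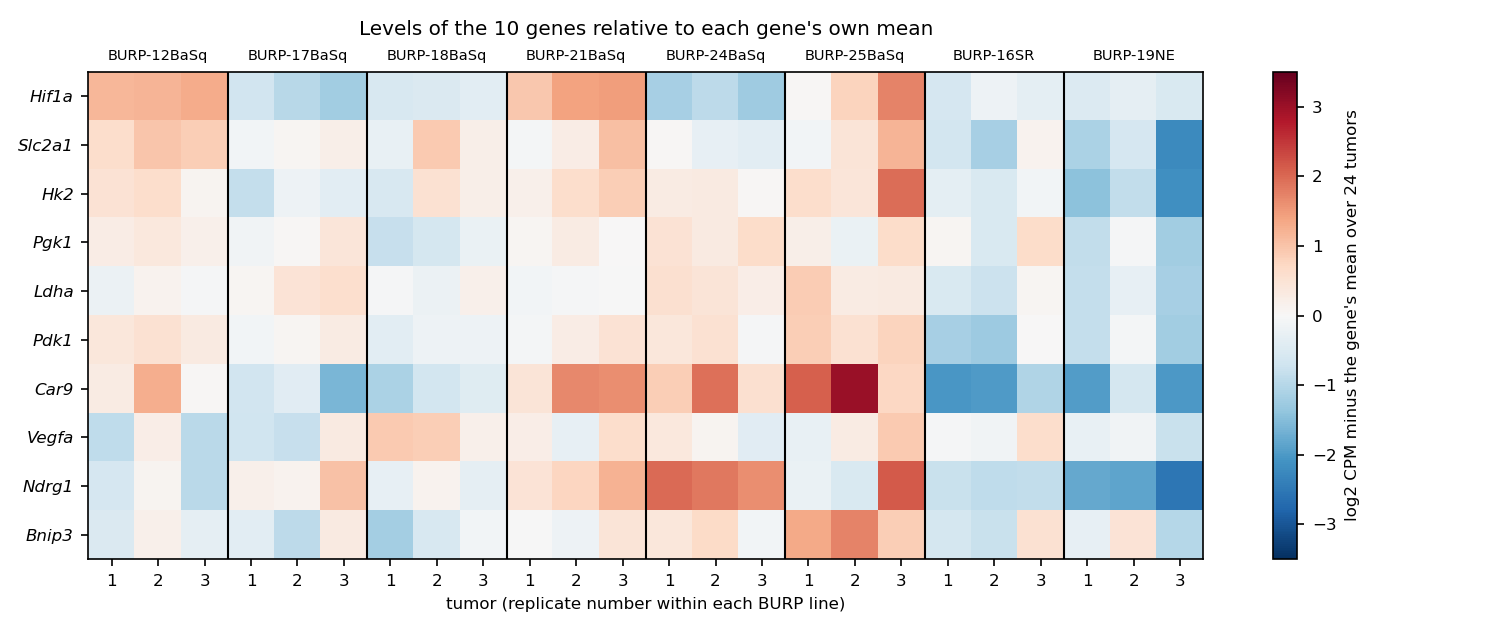
Log2 CPM of each gene minus its own mean over the 24 tumors (color scale), with genes in rows and tumors in columns, 3 for each BURP line. Tumor 3 of BURP-19NE is blue throughout and lowest of its line for 10 of 10 genes, while Car9 in tumor 2 of BURP-25BaSq (40.3 CPM) is the darkest red cell.

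The neuroendocrine-like line had less transcript of Slc2a1, Hk2 and Ndrg1 than the Ba/Sq lines. Slc2a1 fell by 1.54 ± 0.37 (log2 fold change ± SE, adjusted p = 0.00321), from 260 ± 94.6 CPM (SD, n = 18) to 88.6 ± 45.5 (SD, n = 3), and Hk2 fell by 1.82 ± 0.45 (adjusted p = 0.00361), from 207 ± 110 to 58.4 ± 24.8 CPM. Ndrg1 fell by 2.80 ± 0.69 (adjusted p = 0.00375), from 477 ± 338 to 67.8 ± 17.6 CPM. Among the 18 Ba/Sq tumors the lowest, median and highest levels were 153, 227 and 448 CPM for Slc2a1 and 85.7, 190 and 600 CPM for Hk2, so that every BURP-19NE tumor lay below every Ba/Sq tumor for both genes. The same held for Ndrg1 and for Ldha, which fell by less than 2-fold (-0.93 ± 0.22, adjusted p = 0.00325, 443 ± 139 against 852 ± 191 CPM). In bulk samples, fewer cells of a type and less RNA per cell cannot be told apart.

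A gene was called where its adjusted p was below 0.05 and it changed more than 2-fold. In all, 4 of 10 members were called, all 4 lower, against 24.3% of all genes in either direction and 15% in this direction. Non-overlap, seen for 4 members, was found for 18% of all genes. The fourth call was Car9 (-2.45 ± 0.88, adjusted p = 0.0351), whose tumors overlapped and whose call was lost without any 1 of the BURP-19NE tumors (0.138, 0.0522 and 0.132). Pdk1 (-0.90 ± 0.25, adjusted p = 0.00900) and Pgk1 (-0.76 ± 0.27, adjusted p = 0.0351) passed the p alone. Without tumor 2 of BURP-19NE, Pdk1 (-1.32, adjusted p = 0.00320), Pgk1 (-1.20, 0.0117) and Ldha (-1.23, 0.00332) were called too. Hif1a (-0.93, adjusted p = 0.274), Vegfa (-0.51, 0.291) and Bnip3 (-0.43, 0.512) did not. All 10 estimates were below 0, with a median of -0.93 against -0.14 for all genes. BURP-19NE is 1 line, and with the line as a random effect only Hk2 (adjusted p = 0.0483) and Ndrg1 (0.0474) kept the call, while Slc2a1 gave 0.0674 and Car9 0.275.

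**Figure D3:**
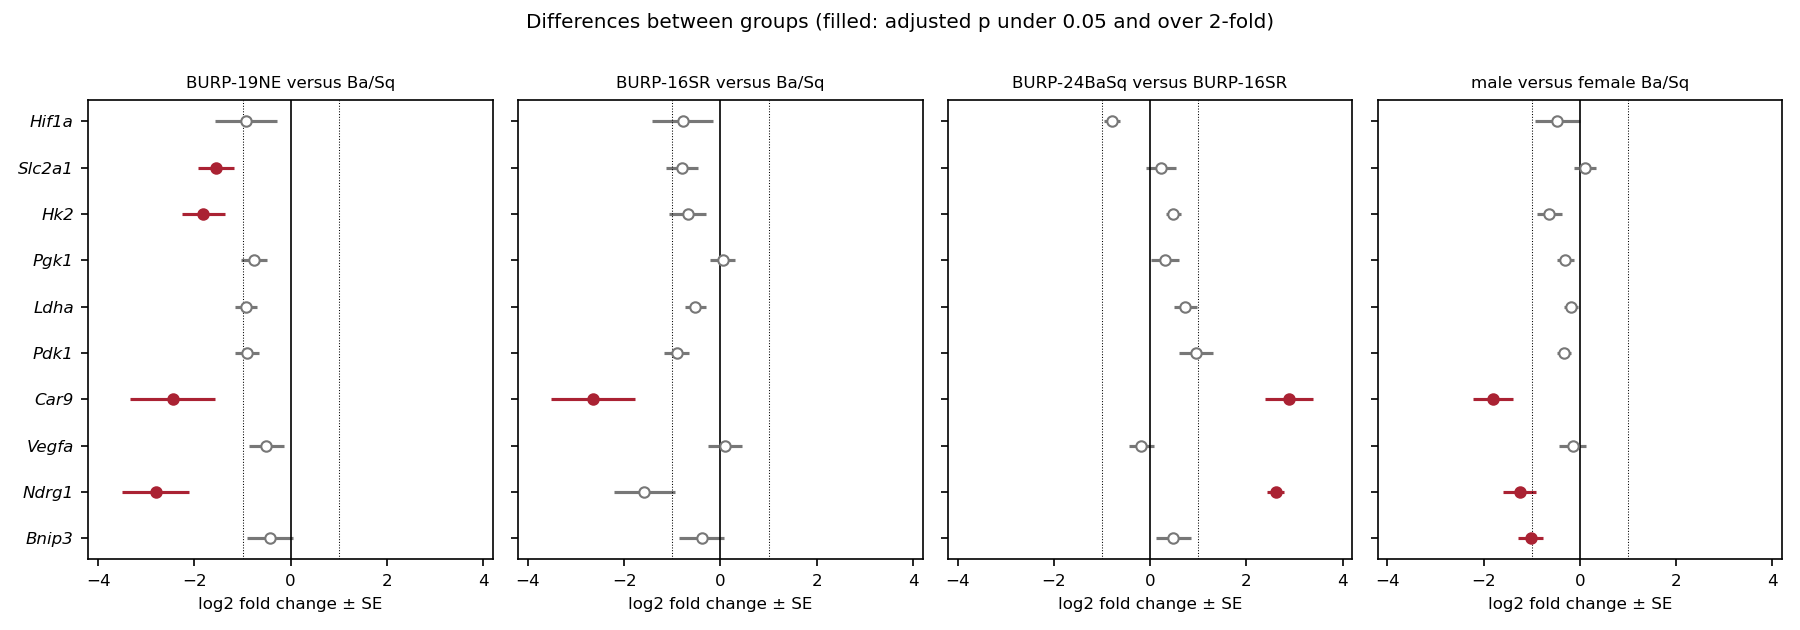
Log2 fold change (x axis, points, with SE bars) of the 10 genes in 4 comparisons; filled red points pass both thresholds of a call, and dotted lines mark 2-fold. In BURP-19NE against Ba/Sq all 10 points lie left of 0 and 4 are filled, in BURP-16SR against Ba/Sq only Car9 is filled, in BURP-24BaSq against BURP-16SR Car9 and Ndrg1 are filled on the right, and in males against females Car9, Ndrg1 and Bnip3 are filled on the left.

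The other genes of the pathway gave a mixed picture around these members. Of 74 such genes in the files, 72 were tested, and 6 were called higher and 18 lower in BURP-19NE, with a median log2 fold change of -0.57. Beside the fall of Slc2a1, Slc16a3, the lactate exporter MCT4, fell from 128 ± 58.8 to 3.24 ± 1.17 CPM (-5.29 ± 0.57, adjusted p = 4.14e-07), with no overlap. Slc2a2, a low-affinity glucose transporter, rose from 0.119 ± 0.124 to 2.03 ± 0.399 CPM (3.901 ± 0.54, adjusted p = 9.99e-06), a low level in each group. Of 19 glycolytic enzyme genes tested, a list that holds the members Hk2, Pgk1 and Ldha, 6 fell, Hk2 among them, and 1 rose. The others that fell included Pfkp, the platelet-type phosphofructokinase (175 ± 51.9 to 46.8 ± 9.28 CPM, -1.89 ± 0.31), Pfkfb3, which makes the activator of phosphofructokinase (-2.30 ± 0.50), and Aldoc, an aldolase (-3.50 ± 0.64), of which Pfkfb3 lost the call with the line as a random effect (adjusted p = 0.0662). The one that rose was Pfkm, the muscle-type phosphofructokinase (9.53 ± 4.81 to 25.5 ± 4.76 CPM, 1.44 ± 0.34). Skeletal muscle markers moved with it: 6 of 9 were called higher, and their summed level was 608 CPM in tumor 1 of BURP-19NE but 4.32 and 7.67 CPM in tumors 2 and 3; their part in the result was not tested. The trunk of the pathway gave small values, with 0.15 ± 0.26 for Gapdh, 0.00 ± 0.21 for Tpi1 and -0.25 ± 0.18 for Pkm, none of which passed.

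Of 25 other hypoxia-response genes, 12 were called lower and 1 higher in BURP-19NE, with a median of -1.34. Ndufa4l2, a mitochondrial protein induced by hypoxia, fell from 83.5 ± 59.8 to 0.676 ± 0.266 CPM (-6.90 ± 1.14), Car12, a carbonic anhydrase, fell from 175 ± 155 to 1.71 ± 0.725 CPM (-6.63 ± 1.19), and Ddit4, an inhibitor of mTOR signalling, fell from 98.9 ± 52.3 to 19.6 ± 4.65 CPM (-2.31 ± 0.52). Plod2, a collagen-modifying hydroxylase, went the other way, from 15.7 ± 11.5 to 82.2 ± 18.6 CPM (2.39 ± 0.69). Of these 4, Ndufa4l2 (adjusted p = 0.0533), Car12 (0.0814) and Plod2 (0.0808) lost the call with the line as a random effect. Plod2 also lost it without tumor 2 of BURP-19NE (0.0652). Of 14 genes of mitochondrial oxidation 1 was called, Cs, the gene of citrate synthase, which was lower (-1.11). Neutrophil markers summed to 1.79 to 2.95 CPM in BURP-19NE and 1.74 to 98.2 CPM in Ba/Sq tumors, with 4 of 5 tested called lower, and their part in the result was not tested.

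**Figure D4:**
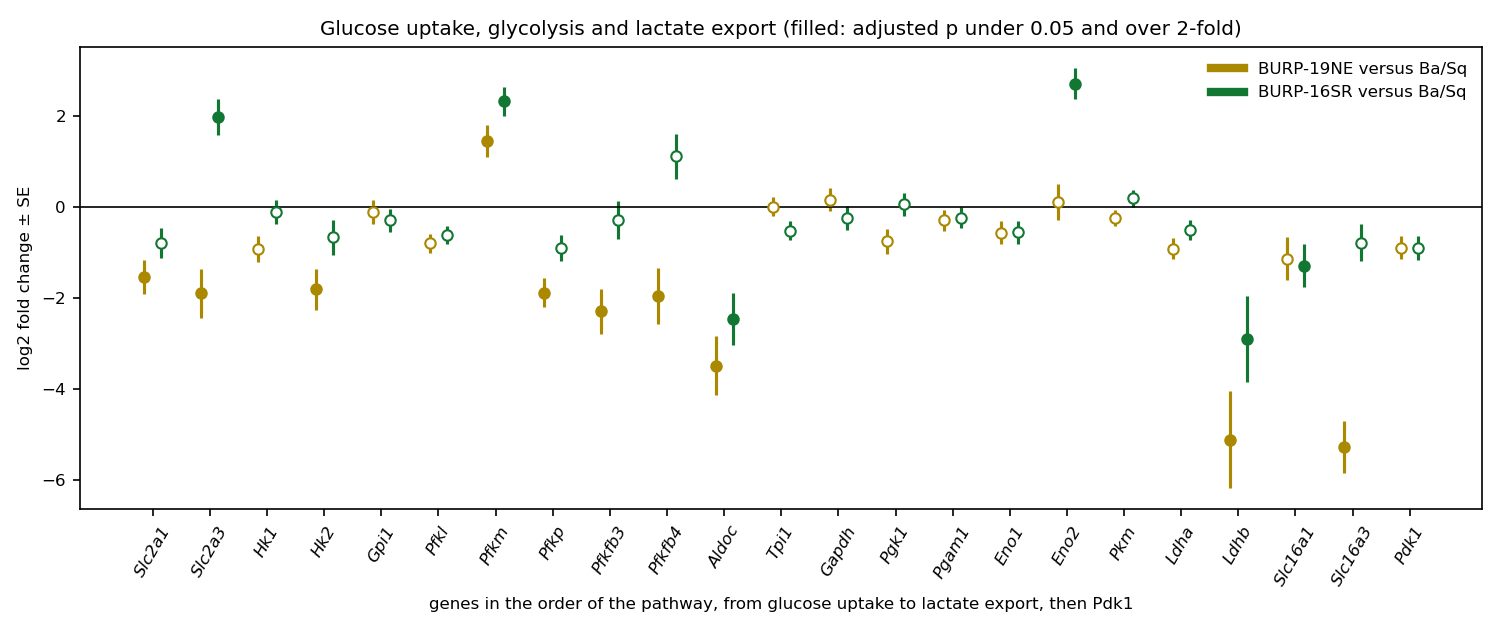
Log2 fold change against the 18 Ba/Sq tumors (y axis, points, with SE bars) for genes of glucose uptake, glycolysis and lactate export in pathway order (x axis), for BURP-19NE and BURP-16SR; filled points pass both thresholds of a call. Slc16a3 (-5.29) and Ldhb are the lowest BURP-19NE points, Gapdh and Tpi1 lie near 0, and Slc2a3 (1.97), Pfkm (2.31) and Eno2 (2.70) are filled above 0 in BURP-16SR.

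The stroma-rich line differed from the Ba/Sq lines in few members. Only Car9 was called (-2.64 ± 0.88, adjusted p = 0.0311, 1.52 ± 0.68 CPM in BURP-16SR against 10.2 ± 9.58, with overlap), against 19.2% of all genes in either direction and 8.62% lower. The call was lost without any 1 of the 3 BURP-16SR tumors (0.128, 0.117 and 0.0628) and with the line as a random effect (0.410). Pdk1 passed the p alone (-0.91 ± 0.26, adjusted p = 0.0155). The glycolysis genes gave -0.79 ± 0.34 for Slc2a1 (0.0851), -0.52 for Ldha (0.0863), -0.68 for Hk2 (0.207) and 0.05 for Pgk1 (0.915). Ndrg1 gave -1.58 ± 0.63 (0.0702), Hif1a -0.78 (0.383), Bnip3 -0.39 (0.577) and Vegfa 0.10 (0.869). Tumor 3 of BURP-16SR, labelled as passage 5, stood above its sisters for 8 members, for instance at 857 CPM of Pgk1 against 568.4 and 376 CPM. Its summed markers of fibroblasts (612.5 against 7721 and 20640 CPM), macrophages (84.6 against 543 and 421 CPM) and T cells (0.63 against 27.6 and 34.5 CPM) were lower than those of its sisters. Markers of endothelial cells (365 against 263 and 382 CPM) and of proliferation (507 against 378.5 and 827 CPM) lay between those of its sisters. The part of these markers in the result was not tested. Without tumor 3 of BURP-16SR, Pdk1 and Slc2a1 (-1.28, adjusted p = 0.0376) were called as well, and the estimates for Pgk1 (-0.36) and Vegfa (-0.25) turned negative. The comparison shares its 18 Ba/Sq tumors with that of BURP-19NE.

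Among the other pathway genes, 7 were called higher and 9 lower of 71 tested in BURP-16SR (median -0.06). Of all genes, 19.2% were called in either direction and 8.62% lower, so calls are not particular to the pathway. Slc2a3, the high-affinity transporter GLUT3, rose from 4.17 ± 2.55 to 15.6 ± 2.34 CPM (1.97 ± 0.39), Pfkm from 9.53 ± 4.81 to 44.8 ± 6.58 CPM (2.31 ± 0.32), and Eno2, the neuronal enolase, from 2.56 ± 1.11 to 15.9 ± 8.99 CPM (2.70 ± 0.34). Aldoc fell from 12.7 ± 6.36 to 2.18 ± 0.377 CPM (-2.47 ± 0.57). For these 4 genes the BURP-16SR and Ba/Sq tumors did not overlap. In this line the hypoxia-response list was split, with 4 genes higher and 5 lower of 25. Angptl4, an inhibitor of lipoprotein lipase, rose from 10.4 ± 8.09 to 116 ± 39.4 CPM (3.53 ± 0.52). Fam162a, a mitochondrial protein, fell from 108 ± 39.8 to 20.3 ± 7.50 CPM (-2.34 ± 0.42) and Ddit4 from 98.9 ± 52.3 to 25.38 ± 2.52 CPM (-1.88 ± 0.49). With the line as a random effect Aldoc (adjusted p = 0.186) and Ddit4 (0.131) lost the call. Endothelial markers summed to 263 to 382 CPM, against 36.4 to 433 in Ba/Sq tumors, with 6 of 9 called higher. Fibroblast markers summed to 613 to 20640 CPM, against 241 to 10250 CPM in Ba/Sq tumors, with 4 of 8 called higher. The value of 613 CPM was that of tumor 3 of BURP-16SR and lay within the Ba/Sq range. Skeletal muscle markers summed to 147.8 CPM in tumor 2 of BURP-16SR against 1.36 and 1.40 CPM in its sisters. The part of these markers in the comparison was not tested.

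Set directly against each other, BURP-16SR had more Ndrg1 (1.27 ± 0.21, adjusted p = 0.00619, 153 ± 5.61 against 67.8 ± 17.6 CPM) and Hk2 (1.17 ± 0.31, adjusted p = 0.0295, 123 ± 18.1 against 58.4 ± 24.8 CPM) than BURP-19NE, with no overlap between the 3 tumors of each. This is 2 of 10 members called higher, against 14.8% of all genes. The Hk2 call was lost without tumor 1 or 3 of BURP-19NE (0.107 and 0.0504) and without tumor 1 or 3 of BURP-16SR (0.0831 and 0.0530), and the Ndrg1 call when all 24 tumors shared 1 fit (0.0724). Estimates for Vegfa (0.64, adjusted p = 0.0863), Pgk1 (0.84, 0.137) and Slc2a1 (0.77, 0.237) did not pass. Of 69 other pathway genes tested, 19 were higher and 3 lower in BURP-16SR, among them Slc16a3 (70.4 ± 27.7 against 3.24 ± 1.17 CPM, 4.52 ± 0.38, adjusted p = 0.000914) and Pfkfb3 (55.4 ± 6.15 against 14.3 ± 3.20 CPM, 2.05 ± 0.19). All 9 endothelial markers were called higher too, beside 4 of 10 VEGF ligands and receptors (a list that holds Vegfa, which was not called), and their part in that list was not tested.

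BURP-24BaSq, a female line whose donor tumor had squamous and sarcomatoid features, was compared with the male sarcomatoid line BURP-16SR. Line, subtype and sex differ together in this pair and cannot be told apart. Ndrg1 was higher in BURP-24BaSq by 2.61 ± 0.18 (adjusted p = 0.000133, 971 ± 120 against 153 ± 5.61 CPM) and Car9 by 2.88 ± 0.50 (adjusted p = 0.00473, 11.7 ± 6.28 against 1.52 ± 0.68 CPM). These 2 of 10 members were called higher against 13.2% of all genes. Hif1a was lower, by less than 2-fold (-0.79 ± 0.17, adjusted p = 0.0120, 118 ± 14.5 against 196 ± 27.2 CPM), and Ldha higher by less than 2-fold (0.73 ± 0.24, adjusted p = 0.0482, 974 ± 110 against 567 ± 171 CPM). Tumors did not overlap for Ndrg1, Car9, Ldha, Hk2 and Hif1a, which is 5 of 10 against 53.5% of all genes. Hk2 (0.49, adjusted p = 0.0507), Pdk1 (0.95, 0.0737), Pgk1 (0.31, 0.438), Bnip3 (0.48, 0.338), Slc2a1 (0.22, 0.608) and Vegfa (-0.18, 0.614) did not pass. Without tumor 3 of BURP-16SR, Pdk1 (1.52, adjusted p = 0.00181), Bnip3 (1.05, 0.0136) and Ldha (1.04, 0.00650) were called too. Of 10 VEGF ligands and receptors, Vegfa included, 6 were lower in BURP-24BaSq, against 15.8% of all genes, with a median of -1.14 against -0.05, among them the receptor genes Flt1 (21.5 ± 2.57 against 66.5 ± 25.5 CPM, -1.68 ± 0.27) and Flt4 (5.20 ± 1.72 against 11.9 ± 2.19 CPM, -1.24 ± 0.30), while 9 of 9 endothelial markers were lower as well, with their part in it not tested. Flt4 lost the call with all 24 tumors in 1 fit (adjusted p = 0.0679) and without tumor 1 or 2 of BURP-24BaSq (0.0799 and 0.0600), and 3 more of the 6, Pgf, Kdr and Vegfb, lost it in some setting (highest adjusted p = 0.173 for Pgf, 0.160 for Kdr and 0.0795 for Vegfb).

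Within the Ba/Sq subtype, tumors from males had less Car9, Bnip3 and Ndrg1 than tumors from females. Car9 was 4.47 ± 3.11 CPM (SD, n = 9) in males, with a lowest, median and highest tumor of 1.53, 3.63 and 11.9, and 15.9 ± 10.6 (SD, n = 9) in females, with 6.70, 15.3 and 40.3 (-1.80 ± 0.41, adjusted p = 0.0170). Bnip3 was 64.5 ± 21.2 against 131 ± 65.4 CPM (-1.02 ± 0.26, adjusted p = 0.0301) and Ndrg1 282 ± 121 against 671 ± 377 CPM (-1.25 ± 0.34, adjusted p = 0.0391). Tumors of both sexes overlapped for all 3 genes. The 3 calls of 10 compare with 1.22% of all genes called lower in males. The tumors are not 18 independent animals in this respect, since each sex is represented by 3 lines. For these 3 genes every female line mean exceeded every male one, which was so for 6.53% of all genes. Without tumor 3 of BURP-25BaSq the Ndrg1 mean of that line was 211 CPM, below BURP-17BaSq (391 CPM) and BURP-18BaSq (248 CPM), so that this order then held for Car9 and Bnip3 only. Over all tumors, an exact permutation test over the line means, two-sided, gave p = 0.1, the smallest that 3 against 3 allows. With the line as a random effect in limma 0 of 10 members were called, with 2 at an unadjusted p under 0.05 (adjusted p = 0.435 for Car9, 0.534 for Bnip3 and 0.591 for Ndrg1). When counts were summed per line and tested by edgeR, 0 of 10 were called, with 3 at an unadjusted p under 0.05 (adjusted p = 0.676, 0.739 and 0.640). DESeq2 on the single tumors called 3. Lines are nested in sex, 3 against 3, so both of these tests over lines rest on 6 lines. Bnip3 was also lost without both doubtful tumors (0.0886), without tumor 1 or 2 of BURP-18BaSq or tumor 3 of BURP-25BaSq (0.0516 to 0.0531), and, by a change below 2-fold, without 4 other single tumors. Ndrg1 was lost without any single one of 12 tumors (0.0505 to 0.0763), tumor 3 of BURP-25BaSq among them, and with no filter on low counts (0.0525).
The other members gave -0.63 for Hk2 (adjusted p = 0.146), -0.46 for Hif1a (0.596), -0.33 for Pdk1 (0.188), -0.30 for Pgk1 (0.304), -0.18 for Ldha (0.507), -0.15 for Vegfa (0.794) and 0.11 for Slc2a1 (0.832).
Of 69 other pathway genes 1 was called, Vegfc, a ligand of lymphatic vessels (2.37 ± 0.66, 6.68 ± 8.05 against 1.25 CPM in females), and of the relatives of the members Ndrg2 (-1.64 ± 0.35) and Car13 (-1.75 ± 0.47) were lower in males. None of these 3 calls held with the line as a random effect (adjusted p = 0.736 for Vegfc, 0.333 for Ndrg2 and 0.292 for Car13) or with counts summed per line (0.773, 0.617 and 0.773). Vegfc and Car13 were also lost with no filter on low counts (0.0571 and 0.0503), without both doubtful tumors (0.102 and 0.0947) and without any single one of 12 tumors for Vegfc (0.0549 to 0.0968) and of 10 for Car13 (0.0503 to 0.0613).

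When each Ba/Sq line was set against the other 5, which share tumors between these comparisons, 1 member was called. Bnip3 was higher in BURP-25BaSq by 1.42 ± 0.27 (adjusted p = 0.0258, 205 ± 61.0 against 76.5 ± 25.9 CPM), and its 3 tumors lay above the other 15. Of all genes 0.263% were called higher and 0.716% did not overlap. The call did not stand without tumor 1 (0.221), tumor 2 (0.556) or both doubtful tumors (0.298), nor with a minimum of 10 counts in every tumor (0.0606) or the line as a random effect (0.9999). BURP-24BaSq had 0 of 10 called by edgeR (1.65% of all genes), 3 at an unadjusted p under 0.05 and 1 called by DESeq2, although Ndrg1 was higher by 1.36 ± 0.44 (adjusted p = 0.103) and gave 1.60 with adjusted p = 0.0146 without tumor 3 of BURP-25BaSq, the only tumor of another line at its level. Hif1a gave -1.78 ± 0.62 there (adjusted p = 0.130), and passed with DESeq2 (0.0201). The male lines also had 0 of 10 called, against 4.59% of genes for BURP-12BaSq, 1.07% for BURP-17BaSq and 10.1% for BURP-18BaSq, and so had BURP-21BaSq (0.0195%). At an unadjusted p under 0.05 edgeR gave 1 member in BURP-12BaSq, 3 in BURP-17BaSq, 4 in BURP-18BaSq and 0 in BURP-21BaSq, and DESeq2 called 0, 1, 1 and 0. In BURP-18BaSq, Pgk1 (-0.79 ± 0.19, adjusted p = 0.00915) and Pdk1 (-0.61 ± 0.19, adjusted p = 0.0340) passed the p with less than a 2-fold change. Hif1a gave 0.92 in BURP-12BaSq (0.316), 1.01 in BURP-21BaSq (0.521) and -1.60 in BURP-17BaSq (0.226); each of these lines was set against a group that held another line at its Hif1a level.

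Related genes outside the members were also called in single lines. Car12 was higher in BURP-12BaSq than in the other Ba/Sq lines (481 against 114 CPM, 2.07), beside the lactate transporter Slc16a1 (1.17). BURP-18BaSq had less Ldhb, the lactate dehydrogenase subunit that favors pyruvate (-3.09), and more Vegfc (3.40). BURP-24BaSq had less Car2, a cytosolic carbonic anhydrase (0.810 ± 0.367 against 25.8 CPM, -4.97 ± 1.12), and less Pdk2 (2.09 ± 0.792 against 5.92 CPM, -1.51 ± 0.36). The Vegfc call held in every setting that gave a value. With the line as a random effect the other 5 calls were lost (adjusted p = 0.209 to 0.651), and those of Car12, Slc16a1, Car2 and Pdk2 were also lost without any single tumor of the line in question (0.0697 to 0.253).

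Between sister tumors of a line most pairs of members moved the same way. With the line means subtracted, 40 of 45 pairs of members had a correlation of log2 CPM above 0 across 24 tumors, with a median r of 0.483. The points share library and depth, and no test is attached. The same share was not calculated for pairs over all genes, so these values do not show that this is particular to the members. Each member was then set against the mean of the other 9. Slc2a1 (r = 0.854), Pdk1 (0.834), Hk2 (0.756) and Pgk1 (0.689) followed it most closely, then Bnip3 (0.634), Vegfa (0.601), Ldha (0.558) and Ndrg1 (0.474), and Hif1a (0.310) and Car9 (0.189) least. Across the 8 line means the same comparison gave 0.941 for Hk2, 0.922 for Car9 and 0.908 for Pdk1, but 0.406 for Hif1a and 0.226 for Vegfa. Over all tumors, Car9 thus followed the other members between lines and hardly between sister tumors. The low value within lines includes BURP-25BaSq, where Car9 was lowest in tumor 3 (8.15 CPM against 21.3 and 40.3). The mean of the members' log2 levels, each minus the gene's own mean, was highest in that tumor (1.12 against 0.543 and 0.675). The correlation was not recalculated without the doubtful tumors. The pair Slc2a1 and Hk2 correlated at both levels (0.82 within lines and 0.87 between line means). Hif1a and Ndrg1 had 0.60 within lines and 0.046 between them, and Hif1a and Ldha -0.29 within lines. The value of 0.60 includes the doubtful tumor 3 of BURP-25BaSq, at 837 CPM of Hif1a and 1212 CPM of Ndrg1. Its sister tumors had 258 and 429 CPM of Hif1a and 234 and 188 CPM of Ndrg1. That value was not recalculated without tumor 3, so it is not evidence that the 2 genes move together in other lines.

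The sister tumors behind these values can be named. In BURP-19NE, tumor 2 had the highest level of 9 members and tumor 3 the lowest of 10. In BURP-12BaSq, tumor 2 was highest for 9, and in BURP-24BaSq tumor 3, labelled as passage 2, was lowest for 9. In BURP-16SR and BURP-21BaSq the tumors labelled as passage 5 were highest for 8 members each. No such counts were made over all genes, so they are not shown to be particular to the members. As the mean of the 10 centered log2 levels, tumors ran from -1.49 in tumor 3 of BURP-19NE to 1.12 in tumor 3 of BURP-25BaSq. Outside the members, the 5 genes whose pattern within lines was most like the members' mean over the 24 tumors were Egln3, a prolyl hydroxylase of the oxygen-sensing pathway (r = 0.872), the lactate exporter gene Slc16a3 (0.854), Tpi1, the triosephosphate isomerase of glycolysis (0.852), Higd1a, a mitochondrial protein (0.827), and Fnip1, the gene of a folliculin-interacting protein (0.826). Of these, 4 were on the pathway lists and Fnip1 was on none.

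**Figure D5:**
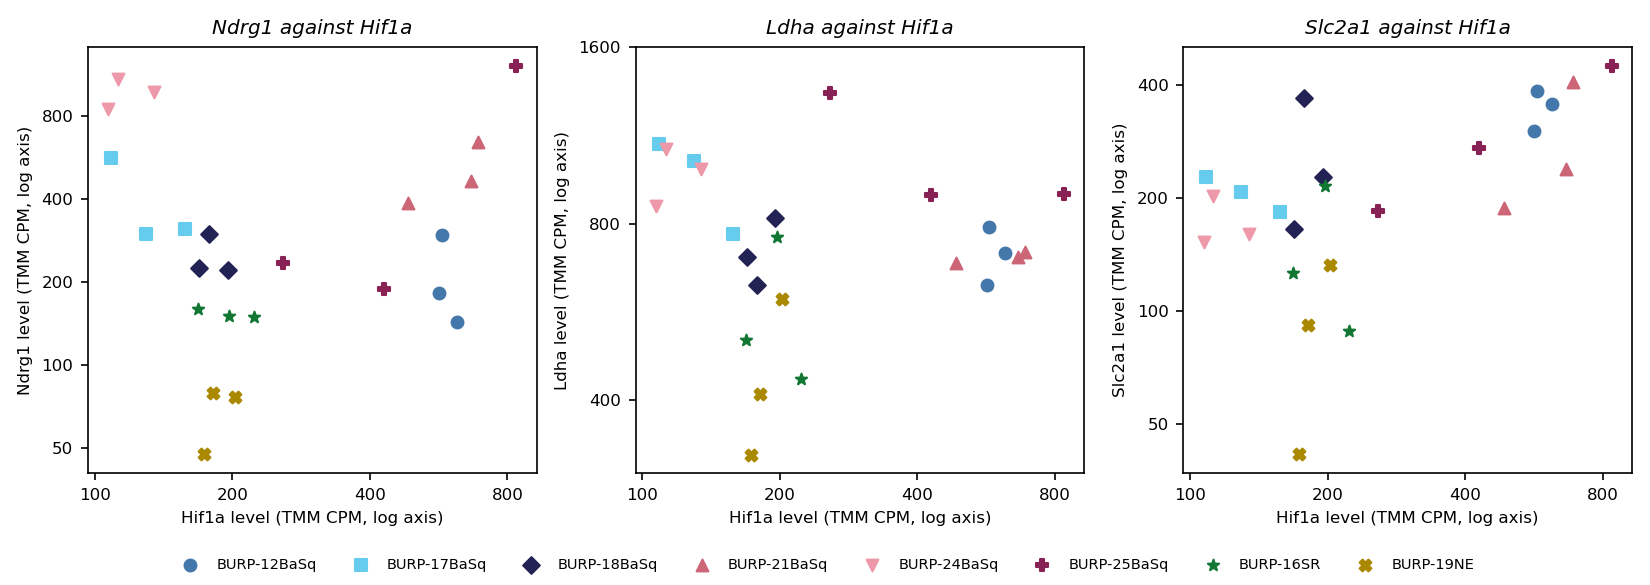
Level of Ndrg1, Ldha and Slc2a1 (y axes) against that of Hif1a (x axis) in each of 24 tumors (TMM CPM, log axes), with a color and symbol for each BURP line. BURP-24BaSq has the lowest Hif1a line mean (118 CPM) with the highest Ndrg1 (971 CPM), and BURP-12BaSq and BURP-21BaSq sit at the right, at 486 to 689 CPM of Hif1a, with 630 to 791 CPM of Ldha against 769 to 1094 CPM in BURP-17BaSq and BURP-24BaSq.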

How the data were processed

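RNA of 24 tumors was depleted of ribosomal RNA with a stranded kit and sequenced as paired ends. Per the labels, the study's methods and the submitters' processing notes, the authors used CASAVA 1.8.2, aligned reads to GRCm38 with STAR 2.6.0a and deposited RSEM 1.3.1 estimated counts per gene, 12.5% of them not whole. The strand setting of the counting is not given in the sources used here, so reads from overlapping genes on the opposite strand cannot be told apart. Ribosomal depletion keeps immature and noncoding RNA, and a library with much remaining ribosomal RNA has fewer counts for the genes of interest.

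Estimated counts were rounded and tested in R 4.3.3 with edgeR 4.0.16 (TMM, filterByExpr, quasi-likelihood F test, Benjamini-Hochberg adjustment over all genes tested), with a call at adjusted p under 0.05 and, between groups, a change over 2-fold. Levels are TMM CPM and log2 CPM used a prior count of 2. Alternatives used DESeq2 1.42.0, limma 3.58.1 (line as a random effect), other filters and normalizations, all tumors in 1 fit and each tumor left out. Leaving out both doubtful BURP-25BaSq tumors was chosen after seeing the data. The fits were tested on simulated counts of independent tumors. That simulation held no spread between lines within a group, so it does not cover the nesting of sister tumors in lines. Identifiers were matched to GENCODE annotation of GRCm38 (99.64% found). Motifs were searched in Python 3.11.15.

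The members and gene lists were chosen with earlier results of these data known. The text names every member; from each other list, the called genes without overlap of tumors, at most 5 in each direction by fold change; the 5 genes most like the members' mean; and markers that moved with a result. Gapdh, Tpi1, Pkm, Ndrg2, Car13, Vegfc in males against females and Pfkm in BURP-19NE were named after their values were seen. A listed gene that met the rule is not reported here. The aldolase gene Aldoa had 2 identifiers and was left out. Labels give no sequencing batch.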

Additional observations from a re-analysis of the deposited data

Results flagged for a closer look

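In the 9 male and the 9 female Ba/Sq tumors, taken as groups, 4 of 20 member and group combinations had 1 tumor farther from the rest than the 95% limit of Dixon's test (a gap to the nearest tumor of more than 0.493 of the group's range), where chance gives about 1 in 20 for independent samples. The 9 tumors of each group are not independent, since they are 3 sister tumors of each of 3 lines. Hk2 was 599.6 CPM in tumor 3 of BURP-25BaSq (labelled C102-M1), against 279.0 CPM in the next of the female tumors, a gap of 0.725 of the range. Ndrg1 was 562.9 CPM in tumor 3 of BURP-17BaSq (labelled P4), against 312.0 CPM in the next of the male tumors (0.597). Car9 stood apart in each sex, at 40.28 CPM in tumor 2 of BURP-25BaSq (labelled C102-M30), against 21.28 CPM in the next female tumor (0.566), and at 11.94 CPM in tumor 2 of BURP-12BaSq (labelled C47-M30), against 6.045 CPM in the next male tumor (0.566). Of these 4 tumors, 2 are the doubtful libraries of BURP-25BaSq, and the part of the library in the values was not tested.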

How the results depend on the processing

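No paired analysis was possible because the labels give tumor codes and passage names that tie no tumor of one line to a tumor of another. Depth limits Car9 most, with 13 to 33 counts per tumor in BURP-16SR. With 3 tumors from 1 donor tumor in each line, and 1 line for each subtype other than Ba/Sq, the tests cannot separate a subtype from its line. BURP-16SR and BURP-19NE are both male while the Ba/Sq lines are of both sexes, so sex is not balanced in these comparisons either.

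The cause was not tested for any change below. With the line as a random effect, members called went from 4 to 2 in BURP-19NE against Ba/Sq, from 1 to 0 in BURP-16SR against Ba/Sq, from 3 to 0 between sexes (0 also with counts summed per line) and from 1 to 0 in BURP-25BaSq against the other Ba/Sq lines, which also had 0 with at least 10 counts in every tumor or without both doubtful tumors. With all 24 tumors in 1 fit, 2 members were called in BURP-16SR against Ba/Sq, 1 in place of 2 in BURP-16SR against BURP-19NE, and, against the other Ba/Sq lines, 2 in BURP-12BaSq, 2 in BURP-17BaSq, 1 in BURP-18BaSq, 1 in BURP-21BaSq, 2 in BURP-24BaSq and 3 in BURP-25BaSq. DESeq2 called 2 in BURP-16SR against Ba/Sq and 1 each in BURP-17BaSq, BURP-18BaSq and BURP-24BaSq, and BURP-24BaSq also had 1 without both doubtful tumors. Leaving out 1 tumor at a time gave 8 to 10 members among the 8 lines, 6 to 8 among the 6 Ba/Sq lines, 3 to 6 in BURP-19NE and 0 to 2 in BURP-16SR against Ba/Sq, 1 to 2 between these lines, 2 to 5 in BURP-24BaSq against BURP-16SR, 1 to 3 between sexes and 0 to 1 in BURP-24BaSq and BURP-25BaSq.

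Some small estimates changed sign. In BURP-16SR against Ba/Sq, Pgk1 gave -0.0416 with no filter and -0.0074 without both doubtful tumors, and, with single tumors left out, Pgk1 ranged from -0.36 to 0.29 and Vegfa from -0.25 to 0.22. Between BURP-16SR and BURP-19NE, Pdk1 gave -0.026 with no filter and -0.0475 in 1 fit, Bnip3 gave -0.0161 in 1 fit, and with single tumors left out Pdk1 ranged from -0.51 to 0.40, Bnip3 from -0.47 to 0.49 and Car9 from -0.60 to 0.46. In BURP-24BaSq against BURP-16SR, Slc2a1 ranged from -0.0256 without tumor 2 to 0.67 without tumor 3 of BURP-16SR, and Vegfa from -0.34 to 0.14. None of these estimates passed the threshold in the reported fits.

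Over all genes, the number called ranged over all alternatives from 9457 to 17958 around 16409 among the 8 lines, from 2001 to 6152 around 5108 in BURP-19NE and from 1497 to 5760 around 4029 in BURP-16SR against Ba/Sq, from 2828 to 5545 around 4147 between these lines, from 3656 to 6578 around 5302 in BURP-24BaSq against BURP-16SR and from 0 to 1473 around 414 between sexes. Against the other Ba/Sq lines it ranged from 208 to 2370 around 941 in BURP-12BaSq, 12 to 1466 around 220 in BURP-17BaSq, 345 to 3413 around 2065 in BURP-18BaSq, 0 to 707 around 4 in BURP-21BaSq, 77 to 1681 around 339 in BURP-24BaSq and 0 to 647 around 56 in BURP-25BaSq. Under settings other than leaving out a tumor, 434 of the log2 fold changes counted kept their direction and side of the threshold. Of the rest, 16 lost the call, 8 gained it and 5 changed sign. The count covers every member in the comparisons between subtypes, of BURP-24BaSq with BURP-16SR and between sexes. Of the single-line comparisons it holds only Bnip3, Hk2 and Car9 in BURP-25BaSq, Pgk1 and Pdk1 in BURP-18BaSq, and Ndrg1 and Hif1a in BURP-24BaSq. Other calls gained in single lines lie outside this count.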

Other observations

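The next tested protein-coding gene downstream of Hif1a, Snapc1, a subunit of the complex that transcribes small nuclear RNA genes, was also higher in the pair of lines with the most Hif1a transcript. Snapc1 lies at chr12:73964481-73988966 (GRCm38), and it was chosen after its values were seen. Its mean over the 6 tumors of BURP-12BaSq and BURP-21BaSq was 51.4 CPM (44.9 to 56.0) and over the 6 tumors of BURP-17BaSq and BURP-24BaSq 23.7 CPM (19.4 to 28.2), a ratio of 2.17 beside 4.81 for Hif1a. Prkch, on the other side of Hif1a, had 88.0 and 109 CPM, a ratio of 0.806. The lines were picked for their Hif1a level, so these are values with no test.

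Carbonic anhydrases other than Car9 differed by line in ways of their own. Per kilobase of exon, Car13 had its highest line mean in BURP-25BaSq (66.9 CPM per kilobase), Car12 in BURP-12BaSq (63.3), Car2 in BURP-25BaSq (25.9), Car3 in BURP-17BaSq (19.7) and Car4 in BURP-16SR (2.20), beside 10.1 in BURP-25BaSq for Car9. The mitophagy gene Bnip3l, the relative of Bnip3, ranged over line means of 18.4 to 37.4 CPM per kilobase and was likewise highest in BURP-25BaSq.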
